A study of Mus musculus with 21 samples.

Results

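In the back skin of mouse embryos, 128 wells named for fibroblasts held raised summed RNA of a set of 6 genes of the early dermal condensate. They are called gated wells here. A gated well had at least 3000 UMIs (unique molecular identifiers, each standing for an RNA molecule) outside the spike-in controls, and Foxd1, Smoc1, Hhip, Glis1, Trps1 and Gli1 together made up at least 5 of every 10000 of them. The gated wells were 128 of 1155 fibroblast-named wells of that depth (11.1%, 95% exact Clopper-Pearson interval 9.33 to 13.0%), out of 1371 fibroblast-named wells and 1967 wells of any name. The interval covers counting error only.

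Live cells of dorsal skin from CD1 embryos at E15.0 were sorted into the wells of plates, and their RNA was read by SORT-seq, which runs CEL-Seq2 chemistry on a robot. Each plate is a library, and libraries 1 to 7 held fibroblast-named wells. The gated wells were set against the remaining 1027 fibroblast-named wells of at least 3000 UMIs and against 21 wells named DC0 in the same libraries. All 3 groups share strain, stage, tissue and plates, and the labels give no treatment that separates them. The labels do not define DC0 (bulk sample titles name a pre-DC group), nor say whether the names of wells came from the sort or from clustering. If the names follow expression, genes that separate DC0 from fibroblast-named wells were partly used to name them. The labels do not say whether the plates came from separate animals, so each p-value measures the spread between libraries, which may be technical.

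Dermal condensates are groups of dermal fibroblasts that gather under the epidermal placode of a forming hair follicle, send signals back to it, and later form the dermal papilla. WNT and FGF signals from the epidermis act on the upper dermis before cells gather, and hedgehog signals from the placode follow. Cells of the condensate leave the cell cycle and switch on genes such as Sox2, Sox18 and Bmp4.

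The gated wells were chosen by the measured values of the 6 gate genes, so those values are a description. The gated share was highest in library 2, at 24 of 166 wells (14.5%, interval 9.49 to 20.7%), and lowest in library 7, at 8 of 115 wells (6.96%, interval 3.05 to 13.2%), and these intervals overlap. The median sum of the 6 genes was 7.68 per 10000 UMIs in gated wells, 0.747 in the remaining wells and 16.2 in DC0 wells. All 21 DC0 wells lay above the gate, the lowest at 6.39 per 10000. The 5 gated wells nearest the gate stood at 5.00 to 5.04 per 10000, and the 5 remaining wells nearest it at 4.88 to 4.96. A gated well held a median of 15 UMIs of the 6 genes, and at least 2, against medians of 2 in a remaining well and 29 in a DC0 well. Libraries 2 and 4, with the highest shares (14.5 and 13.7%), had the lowest median depths of remaining wells (12202 and 14235 UMIs). In the other libraries these medians ran from 24961 to 34401 UMIs and the shares from 6.96 to 11.1%. Among 964 fibroblast-named wells of at least 10000 UMIs the gated share was 10.3%. The part of depth in the shares was not tested.

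**Figure D1:**
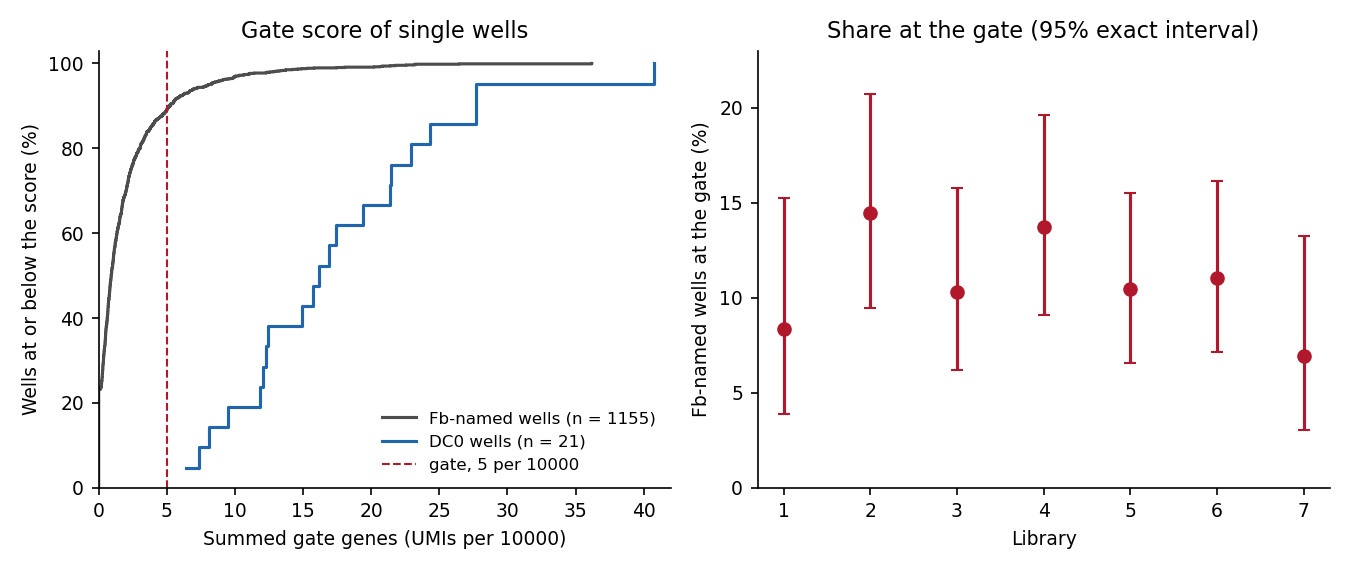
Left, cumulative share of wells (percent) by the summed gate genes per 10000 UMIs, for fibroblast-named and DC0 wells, with the gate as a dashed line. Right, percent of fibroblast-named wells that passed the gate in each library, with the 95% exact interval as a bar. The curve of fibroblast-named wells crosses the gate without a step, all 21 DC0 wells lie to its right, and the shares run from 6.96 to 14.5%.

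Gli1, a transcription factor and target of hedgehog signalling, had a UMI in 92.2% of gated wells, and Trps1, a zinc finger repressor, in 87.5%. Smoc1, a secreted matrix protein, had one in 54.7%, Hhip, a membrane protein that binds hedgehog ligands, in 47.7%, Glis1, a zinc finger factor, in 45.3%, and Foxd1, a forkhead factor, in 28.9%. Trps1 held 33.8% and Gli1 29.4% of the gate UMIs of gated wells, and Foxd1 held 6.84% of them, against 19.2% in DC0 wells. The number of gate genes seen in a gated well was 1 in 5 wells, 2 in 29, 3 in 30, 4 in 29, 5 in 23 and 6 in 12. Ptch1, the hedgehog receptor and a further target of that pathway, was named after its values were seen and was too low to be tested. It stood at 6.27, 11.1 and 35.3 CPM (UMIs of the summed wells scaled to a common total, given as the lowest, median and highest library) in gated wells, against 1.18, 2.29 and 2.49 CPM in the remaining wells, and the groups did not overlap.

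The label fibroblast was checked against markers. The 7 fibroblast markers (Col1a1, Col1a2, Col3a1, Pdgfra, Lum, Dcn and Twist2) summed to 28240, 32820 and 35390 CPM in gated wells, against 45640, 52400 and 56460 CPM in the remaining wells and 12890, 17770 and 23520 CPM in DC0 wells. In this sum the gated wells thus stood between the other groups and did not overlap with either. Singly, 4 of the 7 were called lower and 1 higher than in the remaining wells, beside 11.5% lower and 10% higher of all 9403 genes tested. The higher one was Twist2, with a median of 1684 CPM in gated wells, 894 in the remaining wells and 2088 in DC0 wells. The 9 condensate markers (Sox2, Sox18, Cxcr4, Bmp7, Bmp4, Dll1, Ndp, Heyl and Fgf10) summed to 163, 335 and 519 CPM in gated wells, against 99.3, 118 and 128 CPM in the remaining wells and 893, 2305 and 3080 CPM in DC0 wells. Markers of keratinocytes reached at most 446 CPM in a library of gated wells and 513 CPM in the remaining wells, and those of endothelial, immune, muscle and red blood cells at most 88.4 CPM in gated wells and 62.1 CPM in the remaining wells. Only 1 of 8 endothelial (Cldn5), 1 of 9 immune (Lyz2) and 1 of 7 muscle markers (Pax7) was at 0 in gated wells. The other markers of these lists had at least 1 UMI there. The mural list summed to 151, 172.3 and 222 CPM in gated wells, against 256, 293 and 312 CPM in the remaining wells. Of its 8 markers only Rgs5 was at 0 in gated wells. The 4 neuron markers summed to 58.5, 175 and 384 CPM in gated wells, against 63.4, 122 and 177 CPM in the remaining wells. Of the 4 only Isl1 was at 0 in gated wells, and the 1 marker tested was called higher there. In wells limited by the lower dermis list, described further on, 1 was tested and called lower, beside 2.63% of all genes. The part of these cells in the results was not tested.

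A gated well of library 3 stood apart from its label. It held 683 UMIs of Dct, 478 of Pmel and 163 of Tyrp1, which are pigment enzymes and proteins of melanocytes, beside 410 UMIs of Col1a1 and 160 of Twist2. With 120762 UMIs it made up 18.4% of its library's gated sum. It raised the Schwann and melanocyte markers to 2242 CPM in the gated wells of library 3, which are at 69.1 CPM without it. No other well of the gated or remaining fibroblast-named wells reached 10 such markers per 10000 UMIs. Counts of called genes are given with and without it.

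Median depth was 18308 UMIs per gated well, 23280 per remaining well and 17603 per DC0 well. The sums tested held 257319 to 656802 UMIs per library in gated wells, 2006179 to 5573586 in the remaining wells and 20724 to 191570 in DC0 wells. Well numbers recur between plates (336 of 364), as plate positions do, and no wells were identical.

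A row named eGFP, a fluorescent protein for which the labels of these libraries name no transgene, and the condensate genes Sox2, Sox18 and Cxcr4 were rare in gated wells, too low to be tested against the remaining wells. Sox18, a transcription factor of the condensate, had a UMI in 15.6% of gated wells, 1.95% of the remaining wells and 61.9% of DC0 wells. Were each well thinned to 3000 UMIs, the expected shares would be 3.68% in gated wells, 0.343% in the remaining wells and 29.6% in DC0 wells. eGFP had a UMI in 9.38% of gated wells, 2.53% of the remaining wells and 71.4% of DC0 wells, with expected shares after thinning of 1.87% in gated wells, 0.352% in the remaining wells and 37.6% in DC0 wells. Sox2 was in 1.56% of gated wells and 1.56% of the remaining wells, against 47.6% of DC0 wells. Cxcr4, a chemokine receptor, was in 10.2% of gated wells, 5.36% of the remaining wells and 19.05% of DC0 wells, or 1.71%, 0.780% and 2.53% of those groups after thinning. At least 1 of eGFP, Sox2 and Sox18 was seen in 30 of 128 gated wells (23.4%), 62 of 1027 remaining wells (6.04%) and 18 of 21 DC0 wells (85.7%).

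The first comparison asked what else, beside the gate genes, set the gated wells apart from the remaining fibroblast-named wells of the same plates. In gated wells most tested condensate genes rose, matrix genes and genes of the lower dermis fell, and genes of WNT and FGF signalling were called in both directions. The lists were chosen with earlier results of these data known. Counts on them, here and below, may in part follow that choice. Of 9403 genes tested, 2017 were called (21.5%), 940 of them higher (10%) and 1077 lower (11.5%) in gated wells, by edgeR's quasi-likelihood test at an adjusted p under 0.05. The median log2 fold change of all genes was 0.04. The gate and these genes were read in the same wells, so a gene that varies along with the gate genes from cell to cell differs here too.

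Of the 34 genes of the condensate list, 22 passed the filter on low counts. Of these, 18 rose, 1 fell, and the median log2 fold change was 1.21. Fgf10, a growth factor made by condensate cells, had 68.2, 90.3 and 148 CPM in gated wells, against 17.7, 32.8 and 48.1 CPM in the remaining wells (log2 fold change 1.60, SE 0.139, adjusted p = 7.2e-11). It was higher in 7 of 7 libraries, with no overlap. Bmp4, a ligand that condensates send out, had 46.6, 139 and 267 CPM in gated wells, against 35.9, 44.2 and 58.0 CPM in the remaining wells (1.49, SE 0.193, adjusted p = 3.18e-07), and the ranges overlapped. Prdm1, a transcriptional repressor, had 6.50, 40.8 and 57.4 CPM in gated wells, against 7.90, 8.67 and 11.5 CPM in the remaining wells (1.86, SE 0.282, adjusted p = 5.33e-06). Its level was higher in 6 of 7 libraries, and without the gated wells that held eGFP, Sox2 or Sox18 its adjusted p was 0.0788. Twist2, a factor of dermal fibroblasts, had 1299, 1684 and 2127 CPM in gated wells, against 799, 894 and 1034 CPM in the remaining wells (0.88, SE 0.0683), with no overlap. Igfbp4, which binds insulin-like growth factors, was the member that fell, with 36.9, 69.9 and 342 CPM in gated wells, against 335, 441 and 586 CPM in the remaining wells (-1.68, SE 0.185, adjusted p = 1.26e-08). The ranges of Igfbp4 met, since a library of gated wells reached the lowest of the remaining wells.

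The WNT list moved both ways. Of its 38 genes 33 were tested, 11 rose and 7 fell, with a median of 0.19. The effector Lef1, a transcription factor that works with beta-catenin, had 132, 203 and 247 CPM in gated wells, against 49.3, 58.0 and 86.8 CPM in the remaining wells (1.61, SE 0.114, adjusted p = 6.76e-13). Dkk1, a secreted inhibitor that blocks the WNT co-receptors, had 117, 140 and 253 CPM in gated wells, against 20.5, 26.0 and 30.9 CPM in the remaining wells (2.49, SE 0.143, adjusted p = 3.21e-15). Both genes were higher in 7 of 7 libraries and their groups did not overlap. Sfrp2, which binds WNT ligands outside the cell, fell, with 20.4, 29.5 and 74.7 CPM in gated wells, against 269, 288 and 337 CPM in the remaining wells (-3.02, SE 0.149). In wells limited by the lower dermis list, described further on, Sfrp2 had the opposite sign and was not called (0.50, adjusted p = 0.397). Dkk2, a relative of Dkk1, fell by 3.03 (SE 0.287) on the log2 scale and Lgr5, a receptor for R-spondins, stood at -3.58 (SE 0.351), each lower in 7 of 7 libraries. Inhibitors of the pathway were thus among the genes that rose and among those that fell.

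Dkk1 had the largest rise of the genes named in this comparison. The 250 bases before its start are shown because they hold letters of the kind that TCF and LEF factors bind. The gene lies on mouse chromosome 19 (GRCm38.p6, 30545876 to 30549496, minus strand), and the stretch, from RefSeq, is chr19:30549497-30549746. Capitals mark the 2 matches.

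Dkk1: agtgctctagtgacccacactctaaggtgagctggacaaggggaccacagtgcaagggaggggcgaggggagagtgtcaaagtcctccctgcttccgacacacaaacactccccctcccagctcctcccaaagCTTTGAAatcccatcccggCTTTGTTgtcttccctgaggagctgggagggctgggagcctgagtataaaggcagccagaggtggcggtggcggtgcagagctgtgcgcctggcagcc

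The search took CTTTG followed by 2 bases that are each A or T, on both strands, from 250 bases before to 50 after each start. At least 1 match was in 4569 of 27025 promoters (16.9%) and in 1 of the 9 promoters found for the 11 called WNT genes that were higher (11.1%). A match describes the letters and is not a binding site.

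The FGF list had 14 of 19 genes tested, with 8 higher and 4 lower (median 0.45). Beside Fgf10, Etv4, a transcription factor downstream of FGF receptors, rose by 1.52 (SE 0.311, adjusted p = 0.000379) on the log2 scale, higher in 6 of 7 libraries, and was not called in wells limited by the lower dermis list, described further on (0.66, adjusted p = 0.274). Fgf18 was at 1 UMI in gated wells and 448 in the remaining wells, and Fgf7 at 2 and 531 UMIs. The ratio of their levels was 0.0223 (95% exact interval 0.000564 to 0.125) for Fgf18 and 0.0377 (0.00455 to 0.137) for Fgf7. These intervals, and those of such ratios further on, pool the UMIs of all libraries. They cover counting error only, without the spread between wells or libraries. The ligands of the list therefore went in both directions.

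Of the BMP and TGF-beta list 25 of 31 genes were tested, with 4 higher and 8 lower (median -0.02). Fst, a secreted protein that binds activins and BMPs, had 58.4, 136 and 218 CPM in gated wells, against 15.1, 32.6 and 54.2 CPM in the remaining wells (1.94, SE 0.190, adjusted p = 1.08e-09), with no overlap. Tgfb3, a ligand, fell by 1.92 (SE 0.340) and Tgfbi, a matrix protein induced by TGF-beta, by 1.67 (SE 0.214) on the log2 scale. The hedgehog list, which leaves out Gli1 and Hhip, had 8 of 14 genes tested. Its transcription factor Gli2 rose, with 110, 119 and 194 CPM in gated wells, against 57.2, 60.9 and 78.4 CPM in the remaining wells (1.02, SE 0.116), and 3 genes fell, among them the co-receptor Cdon (-0.81, SE 0.117) and the proteoglycan Gpc3 (-0.34, SE 0.0804). Of the Notch list 8 of 15 genes were tested, and 4 fell. Dlk1, a membrane protein related to Notch ligands, had 887, 1392 and 1700 CPM in gated wells, against 2737, 3714 and 4669 CPM in the remaining wells (-1.59, SE 0.0662), with no overlap. The Notch target Hey1 was called higher (1.03, SE 0.333, adjusted p = 0.0244), but its adjusted p was 0.0606 to 0.113 when library 2, 3, 4, 5 or 6 was left out.

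**Figure D2:**
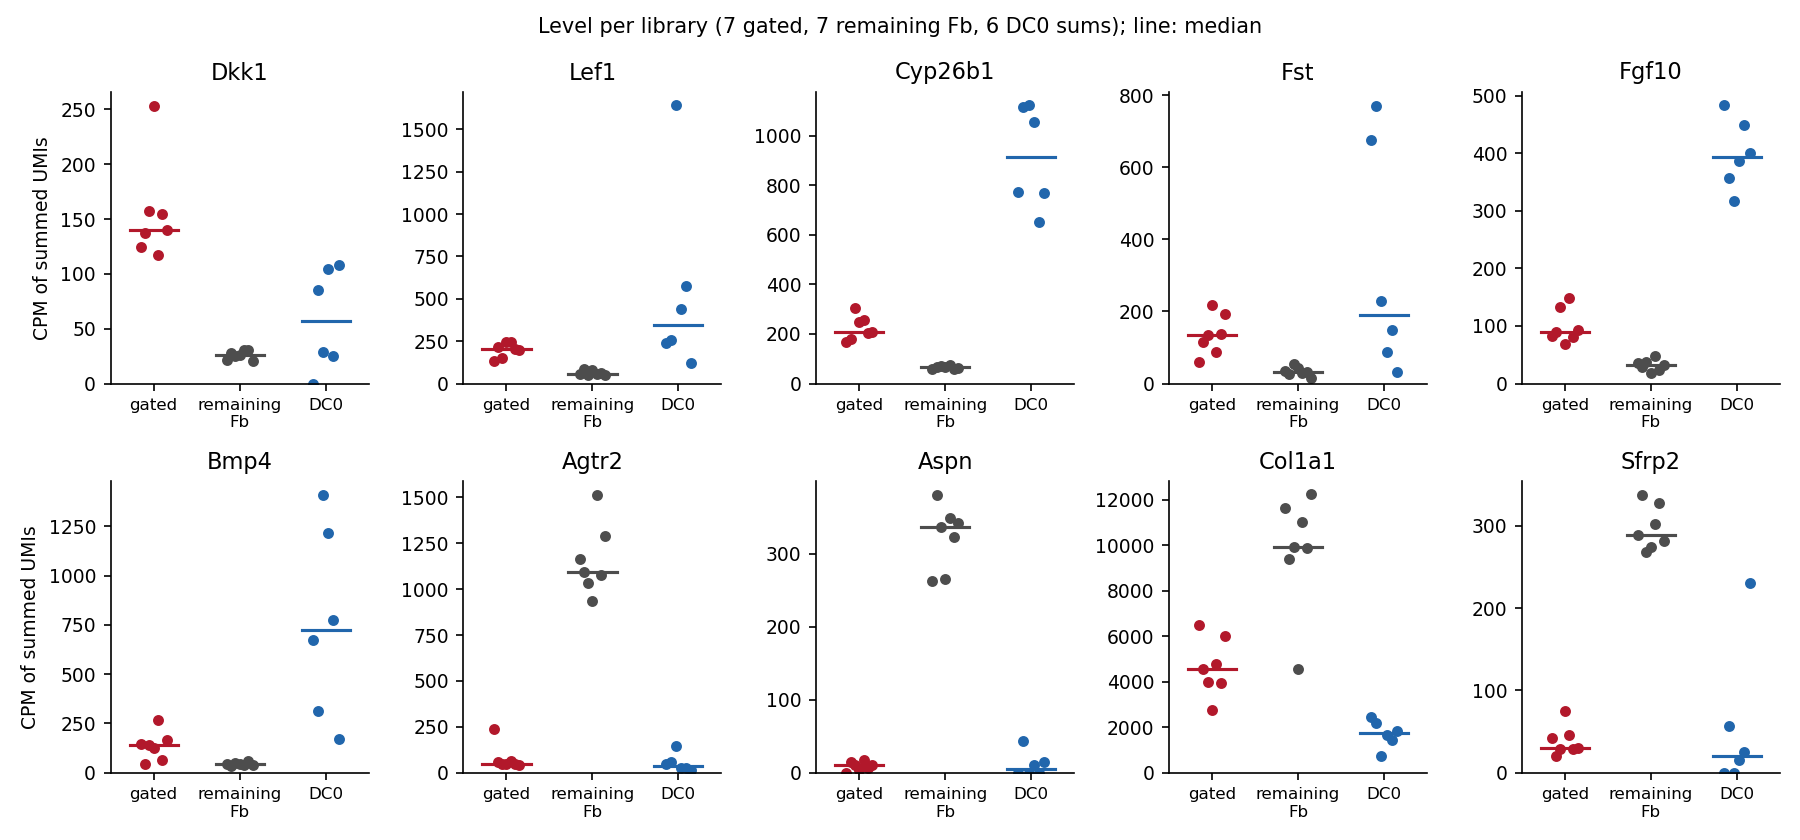
Level (CPM) of 10 genes in gated wells, the remaining fibroblast-named wells and DC0 wells, with a point per library and a line at the median. Dkk1, Lef1, Cyp26b1, Fst and Fgf10 lie higher in gated than in remaining wells, and Agtr2, Aspn and Sfrp2 lie lower without overlap.

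Genes linked to the depth of the dermis divided. Of the upper dermis list 15 of 18 genes were tested, with 10 higher and 3 lower (median 0.64). Cyp26b1, an enzyme that breaks down retinoic acid, had 167, 206 and 303 CPM in gated wells, against 56.8, 65.0 and 74.3 CPM in the remaining wells (1.75, SE 0.102, adjusted p = 5.13e-15), with no overlap. Crabp1, a retinoic acid binding protein, was higher in 6 of 7 libraries (0.35, SE 0.070, adjusted p = 0.000279). Zfhx3, a large zinc finger factor, fell by 2.78 (SE 0.238) on the log2 scale. Of the lower dermis list 17 of 20 genes were tested, and 17 fell (median -1.85). Dpt, a matrix protein also known as dermatopontin, had 55.3, 70.7 and 105 CPM in gated wells, against 510, 626 and 788 CPM in the remaining wells (-3.12, SE 0.107). Clec3b, which encodes tetranectin, was at 1 UMI in gated wells and 384 in the remaining wells, a ratio of 0.0261 (0.000658 to 0.146). Of the adipogenic list 8 of 12 genes were tested and 4 fell, among them Pparg, the main regulator of fat cells (-2.01, SE 0.337), and the lipase Lpl (-1.31, SE 0.158).

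Of the matrix list 43 of 45 genes were tested, with 2 higher and 31 lower (median -0.98). Its genes summed to 40110, 46040 and 50990 CPM in gated wells, against 67570, 75970 and 82530 CPM in the remaining wells. Col1a1, a chain of type I collagen, had 2741, 4573 and 6504 CPM in gated wells, against 4568, 9918 and 12230 CPM in the remaining wells (-1.11, SE 0.0588). It was lower in 7 of 7 libraries, while the ranges overlapped through library 4, which had the lowest value of the remaining wells. Aspn, a small proteoglycan of the matrix, had 0, 10.7 and 17.7 CPM in gated wells, against 263, 337 and 380 CPM in the remaining wells (-5.11, SE 0.174, adjusted p = 7.58e-21). The proteoglycan Fmod was at 3 UMIs in gated wells and 695 in the remaining wells, a ratio of 0.0432 (0.00889 to 0.127). Ogn, a further small proteoglycan, fell by 3.88 (SE 0.176) on the log2 scale, and Fndc1 was lower still (-4.63, SE 0.372).

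Among the other large falls, Agtr2, a receptor for angiotensin, had 44.2, 50.2 and 237 CPM in gated wells, against 933, 1093 and 1512 CPM in the remaining wells (-4.07, SE 0.160, adjusted p = 2.59e-19). Library 1 held the highest level of Agtr2 among gated wells, and it lay below the summed remaining wells of all 7 libraries. In the limited wells Agtr2 was not called (-0.41, adjusted p = 0.342). Sema3c, a secreted guidance signal, had 0, 2.09 and 3.89 CPM in gated wells, against 61.2, 84.8 and 108 CPM in the remaining wells (-5.60, SE 0.304). Angptl1, C1qtnf3, Nppc, Nrk, Mfap5 and Abi3bp fell by 3.60 to 5.05 on the log2 scale, each lower in 7 of 7 libraries without overlap, and Tmeff2 was at 3 UMIs in gated wells and 1273 in the remaining wells (ratio 0.0236, 0.00486 to 0.0691). The other large rises were Syne1, Mtus1, Slitrk6, Cpne5, Ism1, Pdzd2, Tmtc4 and Nnat, by 1.63 to 2.42 on the log2 scale, each higher in 7 of 7 libraries. Of them, Syne1 alone overlapped between groups. The largest rises and falls were picked among genes that moved one way in all libraries. Their agreement between libraries was thus set by the choice. Of the guidance list 28 of 33 genes were tested, with 8 higher and 10 lower (median 0.08). The receptors Epha3 (-2.37, SE 0.328) and Epha4 (-2.23, SE 0.292) and the ligand Slit2 (-1.89, SE 0.219) were among those that fell. Of the adhesion list 20 of 23 genes were tested, with 1 higher and 9 lower (median -0.39).

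Many cell cycle genes were higher in gated wells, by small amounts. Of the S phase list 43 of 44 genes were tested, 19 rose and 0 fell (median 0.35), and of the G2/M list 53 of 53 were tested, 26 rose and 0 fell (median 0.32). Without the library block 14 and 10 of them rose, beside 704 of 9403 genes. With wells thinned to 3000 UMIs 3 of 27 S phase and 5 of 40 G2/M genes rose, beside 134 of 3497 genes. Outside the shared sequencing run these were 5 of 43 and 4 of 53, beside 194 of 9340 genes. The S phase genes summed to 3881, 5194 and 7338 CPM in gated wells, against 3657, 3952 and 4069 CPM in the remaining wells. In library 5 their sum was lower in gated wells. The G2/M genes summed to 6821, 9420 and 11600 CPM in gated wells, against 6239, 6801 and 7974 CPM in the remaining wells, and the ranges overlapped. Mki67, a marker of cycling cells, was higher in 7 of 7 libraries (0.39, SE 0.0736, adjusted p = 0.000136). Its call was lost with wells thinned to 3000 UMIs (0.21, adjusted p = 0.399) and outside the shared sequencing run (0.33, adjusted p = 0.115). Hmgb2, a chromatin protein, rose by 0.73 (SE 0.0783) on the log2 scale, and had an adjusted p of 0.0711 without the block. Ribosomal protein genes moved alongside: 39 of 77 tested rose and 0 fell (median 0.17), or 6 without the block. The brakes on the cycle went in both directions, with 6 higher and 2 lower of 15 tested. Cdkn1c, an inhibitor of cyclin-dependent kinases, had 364, 605 and 1272 CPM in gated wells, against 1538, 2135 and 2865 CPM in the remaining wells (-1.82, SE 0.0838, adjusted p = 1.21e-17), with no overlap. Cdkn1a, a related inhibitor, had 38.9, 69.9 and 336 CPM in gated wells, against 25.8, 43.8 and 56.5 CPM in the remaining wells (1.66, SE 0.225, adjusted p = 6.97e-07), higher in 6 of 7 libraries, with overlap. A single gated well held 105 of the 450 UMIs of Cdkn1a in gated wells, and its call was lost outside the shared run (0.79, adjusted p = 0.131) and in the limited wells (0.46, adjusted p = 0.324). Of the stress list 27 of 30 genes were tested, with 1 higher and 10 lower (median -0.10), and of the glycolysis list 16 of 20, with 0 higher and 3 lower (median -0.14).

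**Figure D3:**
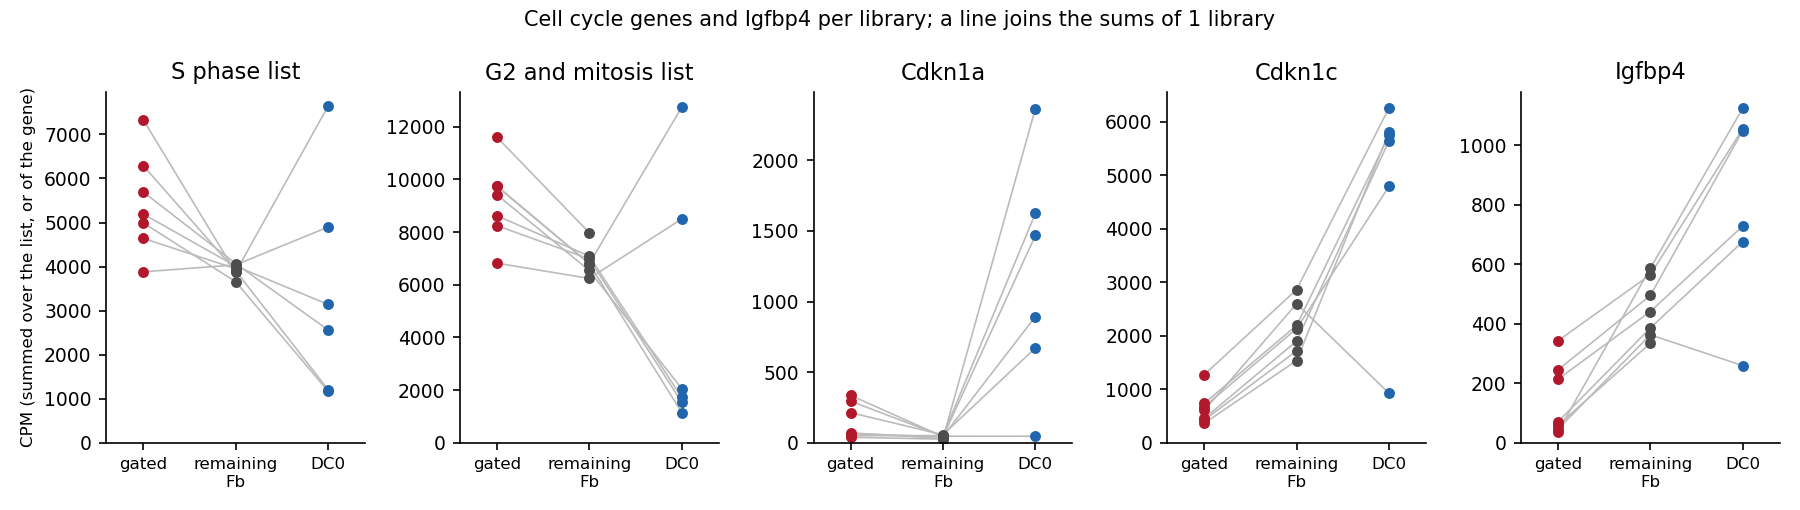
Summed level (CPM) of the S phase and G2/M lists and level of Cdkn1a, Cdkn1c and Igfbp4 in gated, remaining fibroblast-named and DC0 wells, with a point per library and a line that joins the points of a library. Cdkn1c and Igfbp4 lie lowest in gated wells at the median, and the median of Cdkn1a in gated wells lies above that of the remaining wells and below that of DC0 wells.

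Within the 4 libraries of the shared sequencing run (3, 5, 6 and 7) 620 genes were higher and 935 lower in gated wells, and within the other 3 libraries 194 and 369. Of the 2017 called genes, 1359 were called in the shared run and 541 in the other libraries, and 0 were called with the opposite sign in either. Among the genes named above, Crabp1 (adjusted p = 0.251), Gpc3 (0.528), Hey1 (0.416), Pparg (0.105), Prdm1 (0.218) and Tgfb3 (0.181) were not called in the 3 libraries outside the shared run, nor Hey1 within it (0.0955). Without the well of pigment markers 975 genes were higher and 1062 lower. Gpc3 was not called without the library block (adjusted p = 0.0643), nor Cdon after thinning (0.245). Without the gated wells that held eGFP, Sox2 or Sox18 there were 545 and 812, with 12 higher and 1 lower on the condensate list. In a random draw of 3000 UMIs from each well, 134 genes were called higher and 239 lower.

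All tested lower dermis genes were lower in gated wells, so both groups were next limited to wells low in that list. This comparison was added after the first had been seen. Wells were kept whose lower dermis genes made up at most 67.5 per 10000 UMIs, the upper quartile of the gated wells, and that list was not counted. This left 96 gated wells and 333 remaining wells, with 6 to 20 and 27 to 65 per library and median depths of 17764 and 18801 UMIs. Of 7180 genes, 366 were called (5.10%), 177 higher (2.47%) and 189 lower (2.63%) in gated wells, with a median log2 fold change of 0.01 over all genes.

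Of the genes named here, Fst and Fgf10 had the largest rises in these wells. Fst had 66.6, 148 and 311 CPM in gated wells, against 5.02, 15.5 and 30.2 CPM in the remaining wells (3.35, SE 0.260, adjusted p = 1.97e-11). Fgf10 had 66.6, 87.7 and 151 CPM in gated wells, against 3.91, 10.04 and 21.4 CPM in the remaining wells (3.10, SE 0.245, adjusted p = 2.24e-11). Both were higher in 7 of 7 libraries, which the choice of the largest rises required, with no overlap. Aqp1, a water channel, rose by 3.06 (SE 0.304), Spon1, a secreted matrix protein, by 2.11 (SE 0.165), Cyp26b1 by 2.09 (SE 0.132), Mtus1 by 1.96 (SE 0.168), Col23a1, a membrane collagen, by 1.76 (SE 0.170) and Tcf7l2, a partner of beta-catenin, by 1.75 (SE 0.186) on the log2 scale. Of the condensate list 21 genes were tested, with 12 higher and 1 lower (median 0.74). Sox4, a transcription factor, rose by 1.39 (SE 0.134), Dkk1 by 1.39 (SE 0.155) and Lef1 by 0.56 (SE 0.130, adjusted p = 0.00464), and Inhba, a subunit of activins, fell by 1.51 (SE 0.274). Alcam, an adhesion molecule, rose by 1.61 (SE 0.195), and Dclk1, a kinase that binds microtubules, by 1.30 (SE 0.147).

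Secreted proteins and transcription factors were among the genes that fell in the limited wells. Sfrp5, which binds WNT ligands, had 35.9, 84.2 and 155 CPM in gated wells, against 224, 362 and 378 CPM in the remaining wells (-1.85, SE 0.163, adjusted p = 2.5e-10), with no overlap. Serping1, an inhibitor of complement, fell by 1.91 (SE 0.349), Casz1, a zinc finger factor, by 1.90 (SE 0.258), Cxcl12, a chemokine, by 1.45 (SE 0.194), Nrcam, an adhesion molecule, by 1.31 (SE 0.222), Hic1, a repressor, by 1.31 (SE 0.215) and Islr by 1.29 (SE 0.154) on the log2 scale. Sp5, a target of WNT signalling, fell by 1.00 (SE 0.182). Col1a1 was lower (-0.43, SE 0.0728, beside -1.11 in the first comparison, a difference that was not tested), and on the matrix list 5 genes were higher and 8 lower of 35 tested. Crabp1, which was higher in gated wells in the first comparison, was lower here (-0.33, SE 0.0691, adjusted p = 0.00154). Klf4, a factor of the stress list, fell in the first comparison (-1.55, SE 0.134) and was higher here (1.00, SE 0.249, adjusted p = 0.0103). The call on Klf4 was lost without library 3 (adjusted p = 0.104) and without library 5 (0.0828). Prdm1 (0.84, adjusted p = 0.105), Ism1 (0.38, adjusted p = 0.11) and Lpl (-0.66, adjusted p = 0.0914), called in the first comparison, were not called here. Without the library block Col1a1 (adjusted p = 0.179), Crabp1 (0.185) and Mki67 (0.317) were not called.

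Some cell cycle genes were higher in the limited gated wells. On the S phase list 4 of 43 genes were higher and on the G2/M list 6 of 53, beside 2.47% of all genes, and 0 were lower on either. Without the library block 0 G2/M genes were called. The level of Cdkn1c was 277, 472 and 593 CPM in gated wells and 372, 483 and 586 CPM in the remaining wells (-0.05, adjusted p = 0.851), and that of Igfbp4 was 31.1, 51.8 and 252 CPM in gated wells and 47.7, 79.3 and 142 CPM in the remaining wells. Mki67 was called (0.31, SE 0.0846, adjusted p = 0.0191), but its adjusted p was 0.139 without library 3, 0.0687 without library 5, 0.0598 without library 6 and 0.0735 without library 7. Of the ribosomal protein genes 0 of 76 were called, by edgeR. Within the shared run 108 genes were higher and 108 lower, and within the other libraries 39 and 19. Without the well of pigment markers there were 186 and 215.

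**Figure D4:**
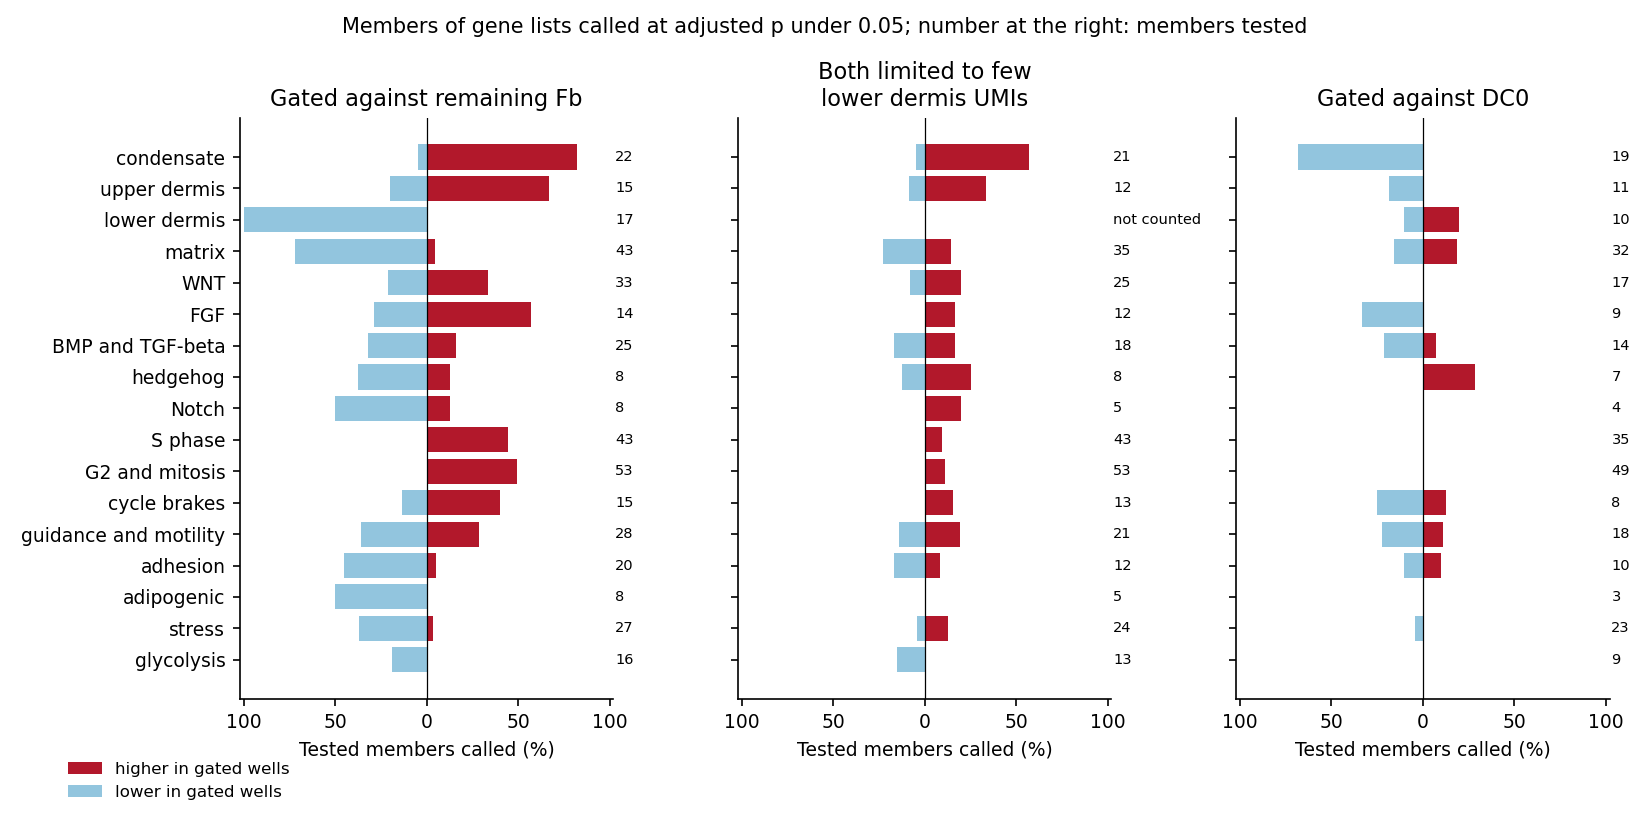
Percent of the tested genes of each list called higher (right of 0) or lower (left of 0) in gated wells, against the remaining fibroblast-named wells, against those wells limited by the lower dermis list, and against DC0 wells, with the number tested at the right. The lower dermis and matrix bars of the first comparison lie mostly to the left, and the condensate bars are to the right against the remaining wells and to the left against DC0 wells.

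Between the low and the high end of the gate score, genes followed different courses. Fibroblast-named wells were divided into 7 bands by the summed gate genes per 10000 UMIs, the lowest at 0 to 1 with 599 wells and the last 3 holding the gated wells (59 at 5 to 7, 33 at 7 to 10 and 36 at 10 or more). The bands come from the gate itself, so the values are a description. The median level over libraries of Dkk1 was 12.5, 30.7, 60.5, 82, 131, 133 and 201 CPM from the lowest band to the highest. Agtr2 was at 1372, 743, 545, 78.1, 62.2, 41.6 and 45.2 CPM, and Cdkn1c at 2655, 1613, 983, 688, 579, 470 and 505 CPM. At these medians Agtr2 and Cdkn1c changed most below the gate, while Dkk1 was higher in each successive band. In the band at 4 to 5, with 37 wells, libraries ran from 0 to 595 CPM for Agtr2 and from 398 to 2724 CPM for Cdkn1c. Over all its wells Cdkn1c was at 1067 CPM there, beside 1008 CPM in the band at 2.5 to 4. Fgf10 was at 30.5, 32.0, 24.8, 18.04, 47.9, 52.2 and 187 CPM, and Fst at 38.7, 20.4, 26.1, 24.1, 73.3, 81.3 and 272 CPM. Both were level or lower in the bands below the gate and higher above it, with the highest value at the top. Bmp4 was at 29.55, 53.4, 72.3, 78.1, 65.9, 130.5 and 48.9 CPM. In the highest band its libraries ran from 21.5 to 495 CPM.

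**Figure D5:**
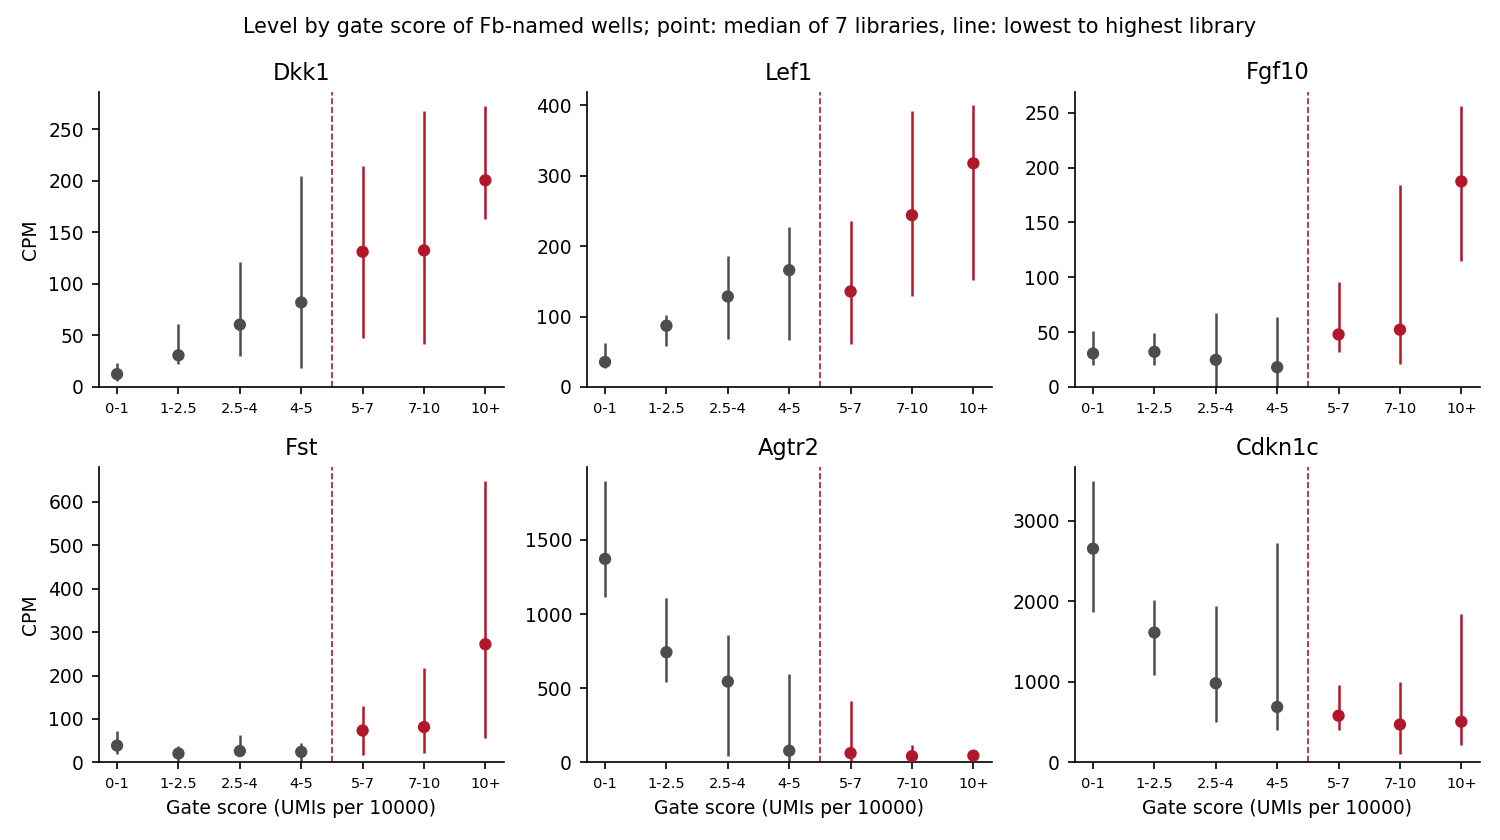
Level (CPM) of Dkk1, Lef1, Fgf10, Fst, Agtr2 and Cdkn1c by band of summed gate genes per 10000 UMIs, as the median of 7 libraries with the lowest and the highest as a bar. Dkk1 and Lef1 climb and Agtr2 and Cdkn1c drop before the gate, while Fgf10 and Fst climb from the gate on.

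The last comparison set the gated wells against the DC0 wells of libraries 2 to 7, where each sum held at least 2 wells. It shares the gated sums with the first, so the values are given side by side and no overlap is drawn from them. Gated wells held more RNA of 6 of 7 fibroblast markers, among them Col1a1, and less of 13 condensate genes. Of 4322 genes tested, 101 were called (2.34%), 47 higher (1.09%) and 54 lower (1.25%) in gated wells, and 521 had an unadjusted p under 0.05. The median log2 fold change of all genes was 0.06.

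Of the condensate list 19 genes were tested, 0 were higher and 13 lower (median -2.04). Sox18 had 2.21, 6.73 and 77.9 CPM in gated wells, against 31.4, 125 and 300 CPM in DC0 wells (-3.49, SE 0.505, adjusted p = 0.000299). The ranges overlapped through a library of gated wells. Bmp7, a BMP ligand, had 20.4, 60.4 and 133 CPM in gated wells, against 154, 503 and 1014 CPM in DC0 wells (-2.88, SE 0.452), with no overlap. Fgf10, higher in gated than in remaining wells, had 68.2, 91.2 and 148 CPM in gated wells, against 317, 394 and 483 CPM in DC0 wells (-1.92, SE 0.252, adjusted p = 8.73e-05). Cyp26b1 likewise had 181, 227 and 303 CPM in gated wells, against 650, 914 and 1123 CPM in DC0 wells (-1.95, SE 0.187). For both genes the gated wells thus lay between the other groups, with no overlap on either side. Prdm1 (-2.77, SE 0.491), Edn3, a peptide ligand (-2.71, SE 0.425), Bmp4 (-2.37, SE 0.361), Ltbp1, which binds latent TGF-beta (-2.39, SE 0.297), Dclk1 (-2.23, SE 0.327) and Nrp2, a receptor for semaphorins (-2.04, SE 0.367), fell as well.

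Of the WNT list 0 of 17 tested genes were called against DC0 wells by edgeR, beside 2.34% of all genes. There were 0 higher and 2 lower without the gated wells that held eGFP, Sox2 or Sox18, with sums of at least 1 well, and without the library block. Dkk1 had 117, 147 and 253 CPM in gated wells, against 0, 57.2 and 108 CPM in DC0 wells (1.05, SE 0.391, adjusted p = 0.227). Its groups did not overlap, although the test was not passed. Lef1 had 148, 209 and 247 CPM in gated wells, against 123, 348 and 1641 CPM in DC0 wells (-1.03, SE 0.321, adjusted p = 0.109). Its adjusted p was 0.00334 without library 7, 0.0388 without the gated wells that held eGFP, Sox2 or Sox18 and 0.0448 without the library block. Twist2 (-0.32, adjusted p = 0.598) and Crabp1 (-0.07, adjusted p = 0.981) were not called.

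Of the 7 fibroblast markers 6 were higher and 0 lower in gated wells. Col1a1 had 2741, 4284 and 5989 CPM in gated wells, against 748, 1758 and 2463 CPM in DC0 wells (1.39, SE 0.166, adjusted p = 3.71e-05), with no overlap. Dcn and Lum, small proteoglycans, rose by 1.66 (SE 0.183) and 1.48 (SE 0.206) on the log2 scale. Of the matrix list 32 genes were tested, with 6 higher and 5 lower (median 0.31), and Col23a1 was among those lower (-1.92, SE 0.245). Islr (2.99, SE 0.635), Bcl11a, a zinc finger factor (2.09, SE 0.385), Pappa2, a protease of growth factor binding proteins (2.04, SE 0.377), and Efna5, an ephrin ligand (1.70, SE 0.277), rose without overlap. Irf1 (2.84, SE 0.546), Igsf10 (2.24, SE 0.465), Pcsk6, a protease that activates growth factors (2.08, SE 0.453), and Matn2 (2.21, SE 0.584) rose too, and each of these calls was lost without a single library. Without library 5 the adjusted p was 0.0787 for Irf1, 0.125 for Igsf10, 0.0895 for Pcsk6 and 0.188 for Matn2. It was 0.051 for Igsf10 without library 3 and 0.0545 for Pcsk6 without library 4, and for Matn2 it was 0.0986 to 0.158 without library 2, 3, 4 or 6. Of the hedgehog list 7 genes were tested, and 2 rose, Boc (1.75, SE 0.405) and Gas1 (1.38, SE 0.312), both hedgehog co-receptors. Boc was not called without library 3, 4, 5 or 6 (adjusted p 0.0685 to 0.111), nor Gas1 without library 2, 4, 5 or 6 (0.0782 to 0.115).

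Of the list of brakes on the cell cycle 8 genes were tested, with 1 higher and 2 lower in gated wells (median -0.56). Btg2, an antiproliferative factor, was the member that rose (1.02, SE 0.262, adjusted p = 0.0403), and it was not called without library 3, 4, 5 or 6 (adjusted p 0.0864 to 0.189). Cdkn1c had 364, 640 and 1272 CPM in gated wells, against 924, 5703 and 6265 CPM in DC0 wells (-2.74, SE 0.284, adjusted p = 8.84e-06). Cdkn1a had 50.2, 142 and 336 CPM in gated wells, against 46.2, 1181 and 2366 CPM in DC0 wells (-2.69, SE 0.592, adjusted p = 0.0146), and its adjusted p was 0.105 without library 2, 0.139 without library 4 and 0.123 without library 6. Igfbp4 had 36.9, 142 and 342 CPM in gated wells, against 259, 889 and 1124 CPM in DC0 wells (-2.51, SE 0.319). At the median, both Cdkn1c and Igfbp4 were thus lower in gated wells than in the remaining wells and than in DC0 wells. The G2/M genes summed to 6821, 9420 and 11600 CPM over the 7 libraries of gated wells and to 1149, 1892 and 12740 CPM in DC0 wells, and 0 of 49 tested were called (median 0.84), by edgeR. Mki67 was not called (1.10, adjusted p = 0.388).

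The 2 DC0 wells of library 7 stood apart from the other DC0 sums. They had the lowest Cdkn1c (924 CPM), Cdkn1a (46.2 CPM) and Crabp1 (293 CPM) and the highest Mki67 (1617 CPM) and G2/M sum of the DC0 wells. Without library 7, 77 genes were higher and 93 lower in gated wells, and Mki67 was called (1.95, adjusted p = 0.000799). Leaving out library 2, 3, 4 or 6 instead gave 18 to 27 higher and 25 to 31 lower genes, and leaving out library 5 gave 31 higher genes. Within the shared run 13 genes were higher and 14 lower, and within the other libraries (2 and 4) 8 and 21. Many named calls were lost in these smaller sets, for reasons that were not tested. Among them were Bmp4 (adjusted p = 0.0509), Bmp7 (0.0509), Edn3 (0.069), Cdkn1a (0.437), Islr (0.11) and Gas1 (0.277) in the shared run. In libraries 2 and 4 they included Sox18 (0.418), Fgf10 (0.109), Col1a1 (0.0692), Igfbp4 (0.0611) and Nrp2 (0.64). Without the well of pigment markers there were 47 and 51.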

How the data were processed

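The authors deposited expected counts in a table of 20284 genes, 86 spike-in rows and 1967 wells. Per the labels' protocols, live cells were sorted into plates and read by SORT-seq, with a UMI per molecule. The submitters' processing notes name mm10 as build, and BWA 0.6.2-r126, TopHat2 2.0.3, Bowtie2 and Cufflinks 2.1.1 as tools whose roles are not given in the sources used here. The deposited values were UMI counts corrected for collisions among 4096 UMIs, as 0 of 6072695 values above 0 differed from that formula by more than 0.005. They were rounded to whole numbers, where whole counts had been assumed.

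UMIs were summed per library and group, in sums of at least 5 wells (2 for DC0 wells). Genes were tested with edgeR 4.0.16 in R 4.3.3 (TMM scaling, filterByExpr, glmQLFit and glmQLFTest, library as a block, Benjamini-Hochberg at 0.05). The 6 gate genes were not tested, but remained in the totals. Fold changes are log2, gated over the other group. DESeq2 1.42.0 was an alternative. The library pairs the groups because both come from the same plate. Within a library, deviations of gated and remaining sums correlated at 0.084 to 0.378, and those of gated and DC0 sums at -0.023 to 0.162.

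Named genes were the 12 largest rises and falls (8 for DC0 and for the limited wells) among called genes that changed by at least 0.58 on the log2 scale, moved one way in all libraries and averaged at least 5 on the log2 CPM scale. Up to 4 members of each of 17 gene lists, and a fixed set from eGFP to Cdkn1a, were added. A gene that this rule picks is not reported here. The members and lists were chosen with earlier results of these data known. Wells were sorted singly per the labels' design, and no doublet caller was run. Whether the well of pigment markers, or any other well, held more than 1 cell was not tested. Coordinates and the promoter came from RefSeq tables of GRCm38.p6. The 12 bulk samples and 571 well columns (wells of other names and those of libraries 8 and 9) were not used here.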

Additional observations from a re-analysis of the deposited data

Results flagged for a closer look

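Of 68 sets of 7 or 6 libraries tested for a value that lies apart from the others (Dixon's test, which chance alone passes in about 1 of 20 sets), 9 were picked out, all in gated wells.

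Agtr2 was at 237.3 CPM in library 1, and the next highest library was at 61.85 CPM. Library 4 had 253.3 CPM of Dkk1, with the next at 157.0 CPM, and 146.1 CPM of Tmtc4, with the next at 84.77 CPM. Cdkn1c was at 1272 CPM in library 5, where the next was at 736.1 CPM, and Sfrp5 at 243.0 CPM in library 5, where the next was at 121.3 CPM. Edn3 reached 103.2 CPM in library 7, against 55.22 CPM in the next. Fndc1 reached 11.65 CPM in library 2, against 4.418 CPM in the next.

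The keratinocyte markers summed to 446.0 CPM in library 7, and the next library was at 213.4 CPM. The Schwann and melanocyte markers summed to 2242 CPM in library 3, through the well of pigment markers described above, and the next library was at 39.76 CPM.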

How the results depend on the processing

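Counts of genes higher and lower in gated wells depended on the gate, on depth and on the number of libraries. Against the remaining wells (940 higher, 1077 lower), leaving out a library gave 682 to 890 higher and 900 to 1048 lower. The higher genes numbered 620 with no filter on low counts, 620 in the shared run, 194 outside it, 134 with wells thinned to 3000 UMIs, 502 and 195 with the gate at 7 and 10 per 10000, 390 without Trps1 and 411 without Gli1 in the gate, 545 without wells with eGFP, Sox2 or Sox18, and 177 in wells limited by the lower dermis list. The lower genes numbered 369 outside the shared run, 239 after thinning, 487 with the gate at 10 and 189 in the limited wells. DESeq2 called 1719 of the 2017 genes and the fit without the replicate block 1565, with 0 of opposite sign. In the limited wells 1646 of the 2017 genes were tested, 288 were called with the same sign, and 153 had the opposite sign, of which 16 were called.

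Against DC0 wells (47 higher, 54 lower), leaving out a library gave 18 to 77 higher and 25 to 93 lower. The fit with no replicate block gave 72 and 85, the shared run 13 and 14, libraries 2 and 4 alone 8 and 21, thinned wells 7 and 12, with the gate at 7 per 10000 13 and 17, at 10 4 and 4, without Hhip 17 and 27, without Trps1 11 and 16 and without Gli1 12 and 17. With no filter 161 were higher, and with the gate at 4 per 10000 81. Sums of at least 5 wells could not be fitted. In the limited wells (177 higher, 189 lower), leaving out a library gave 133 to 171 higher and 122 to 183 lower. The fit with no replicate block called 115 and 107, the shared run 108 and 108 and libraries 1, 2 and 4 alone 39 and 19. DESeq2 called 119 lower and the fit with no filter 317. The gated share was 11.1% and became 14.3%, 5.97% and 3.12% with the gate at 4, 7 and 10 per 10000, and 9.18%, 5.71% and 5.80% without Hhip, Trps1 and Gli1.

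Of the single gene values under alternatives, 1745 of those against the remaining wells kept direction and call, 78 lost the call and 7 turned. Against DC0 wells these were 805, 156 and 7, with 10 calls gained, and in the limited wells 539, 48 and 1. Those that turned against the remaining wells were Crabp1 (-0.022 with the gate at 10, -0.33 in limited wells), Hey1 (-0.034 with the gate at 10, -0.079 in limited wells), Igfbp4 (0.12), Sfrp2 (0.50) and Klf4 (1.00), the last 3 in limited wells. Against DC0 wells Twist2 was 0.036 in the shared run, and Crabp1 was 0.20 with no filter, 0.39 in the shared run and 0.00077 to 0.16 without library 2, 3, 4 or 6, in a range of -0.48 to 0.16 over all libraries left out in turn. Cdkn1a was -0.31 in the limited wells of the other libraries. The causes were not tested. The smaller sets also hold fewer samples or wells. The gated and DC0 sums hold few UMIs, so a gene that was not called may differ below what they can show.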
